A study of Mus musculus with 6 samples.

Results

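The antigen presentation genes described here are 10 genes whose products show peptides to T cells. They are the class II chains *H2-Aa*, *H2-Ab1* and *H2-Eb1*, the class II chaperones *Cd74*, *H2-DMa* and *H2-DMb1*, the class I heavy chains *H2-K1* and *H2-D1*, the light chain *B2m*, and the peptide transporter subunit *Tap1*. They were chosen by gene symbol and by the role of their products, and all 10 of them were found among the 45777 genes of the table and passed the filter that left 18636 genes for testing. Liver RNA was compared between 3 mice of the genotype *Pak4* flox/flox, called WT, and 3 that also carried Alb-Cre, called LKO. All 6 animals were C57BL/6 males at an age of 8 weeks, with livers taken after a fast of 24 h, and each gave 1 library. Both genotypes carry the floxed *Pak4* alleles, and the Cre recombinase of LKO mice is made from the albumin promoter, which is active in hepatocytes, so that other liver cells keep *Pak4*. The study sequenced these livers to ask how the kinase PAK4 acts on the making of ketone bodies, and antigen presentation was not its subject.

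MHC class I molecules are made by nearly all nucleated cells. Their heavy chain pairs with beta-2-microglobulin and receives peptides of cytosolic proteins, which the proteasome cuts and the TAP transporter carries into the endoplasmic reticulum. MHC class II molecules are made mainly by professional antigen-presenting cells, which in the liver are Kupffer cells, dendritic cells and B cells. Their alpha and beta chains are guarded by the invariant chain (*Cd74*) until H2-DM exchanges its last fragment for a peptide of endocytic origin. Class II genes share an upstream module of X and Y boxes that recruits the coactivator CIITA, and class I genes carry a related module that recruits NLRC5.

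That module could be read in the promoter sequences of most of these genes, which is why 6 of them are shown. RefSeq promoter entries (GRCm38.p6) matched 8 of the 10 genes, all but *H2-Ab1* and *Cd74*. Each line below gives 180 bases, 5′ to 3′ on the strand of the gene, that end at the base before the annotated start. Capitals mark an X2 element (TGANG) followed by a Y box (ATTGG), an NF-κB motif of 10 bases (the longest capital run), and, in the class I genes and *B2m*, the interferon regulatory factor core AANNGAAA on either strand.
H2-Aa, chr17:34287824-34288003, minus strand: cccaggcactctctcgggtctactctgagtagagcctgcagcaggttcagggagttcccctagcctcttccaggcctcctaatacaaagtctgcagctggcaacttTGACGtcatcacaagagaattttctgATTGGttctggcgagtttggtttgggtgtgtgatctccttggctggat
H2-Eb1, chr17:34305687-34305866, plus strand: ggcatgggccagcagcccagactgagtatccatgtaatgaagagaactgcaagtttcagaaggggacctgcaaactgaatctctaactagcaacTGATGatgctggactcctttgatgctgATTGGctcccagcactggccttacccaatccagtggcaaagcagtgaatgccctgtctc
H2-DMb1, chr17:34153011-34153190, plus strand: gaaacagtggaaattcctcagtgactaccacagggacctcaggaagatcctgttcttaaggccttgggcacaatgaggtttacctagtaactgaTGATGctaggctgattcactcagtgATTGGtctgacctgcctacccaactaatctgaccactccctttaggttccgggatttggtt
H2-K1 (the more downstream of its 2 listed starts), chr17:34000334-34000513, minus strand: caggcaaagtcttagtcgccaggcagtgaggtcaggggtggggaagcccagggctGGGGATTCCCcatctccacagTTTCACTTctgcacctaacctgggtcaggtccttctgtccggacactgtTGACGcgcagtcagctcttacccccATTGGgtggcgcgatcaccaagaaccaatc
H2-D1, chr17:35262914-35263093, plus strand: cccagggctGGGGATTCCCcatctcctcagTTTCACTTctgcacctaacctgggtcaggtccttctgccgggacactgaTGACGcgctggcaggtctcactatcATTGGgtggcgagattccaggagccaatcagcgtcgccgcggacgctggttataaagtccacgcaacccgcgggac
B2m, chr2:122147507-122147686, plus strand: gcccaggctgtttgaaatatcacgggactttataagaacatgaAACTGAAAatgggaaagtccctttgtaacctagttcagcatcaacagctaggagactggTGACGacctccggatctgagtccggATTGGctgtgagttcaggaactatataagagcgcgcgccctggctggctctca

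An X2 element followed, after 18 to 24 bases, by a Y box on either strand was found in 620 of 32851 promoters of 300 bases (1.89%) and in 6 of the 8 matched genes, those printed above. It was not found in the listed promoters of *H2-DMa* and *Tap1*. The spacing was 20 bases in *H2-K1*, *H2-D1*, *B2m* and *H2-DMb1*, 21 in *H2-Aa* and 22 in *H2-Eb1*, and the spacing range was set with these sequences in view. In *H2-D1*, *H2-Eb1* and *H2-DMb1* 2 overlapping matches fitted, and the one with spacing nearest the middle of the range was marked. The spacing, start and letters given for these genes are those of the marked match. The X2 element began at −55 in *H2-K1*, −101 in *H2-D1*, −78 in *B2m*, −74 in *H2-Aa*, −86 in *H2-Eb1* and −86 in *H2-DMb1*, counted back from −1 at the base before the start. The letters of the X2 element were TGACG in *H2-K1*, *H2-D1*, *B2m* and *H2-Aa* and TGATG in *H2-Eb1* and *H2-DMb1*. The NF-κB motif was found in 0.107% of all promoters and, of the matched genes, in *H2-K1* and *H2-D1*. AANNGAAA is a common word, present in 23.9% of all promoters and in 5 of the 8 matched genes, *H2-K1*, *H2-D1*, *B2m*, *H2-Aa* and *H2-DMa*. In *H2-Aa* it lies at −213, outside the printed window. Such matches describe the letters of these windows and say nothing of factors bound there.

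The libraries held 45934632 to 55205564 counts in the WT group and 53936281 to 59576437 counts in the LKO group. The TMM scaling factors, which correct the total for the make-up of a library, were 1.28 to 1.43 in WT and 0.639 to 0.816 in the LKO mice and did not overlap. Values on the TMM-scaled scale (CPM, read counts relative to the scaled library size) and on the TPM scale, which also divides by transcript length, therefore differ in how far LKO mice lie below WT mice. The median log2 fold change of all genes tested was −0.04 with TMM, −0.90 with total counts and −0.79 with limma on log2(TPM + 1). *Pak4* itself was at 2.44 ± 0.141 TPM in WT and 0.522 ± 0.295 in the LKO mice (n = 3, mean ± SD). Its log2 fold change on TMM-scaled counts was −0.71 (SE 0.31), with an adjusted p of 0.10 in edgeR's quasi-likelihood test, and the value of LKO mouse 3, 3.22 CPM, lay above that of WT mouse 2, 3.21 CPM.

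Class II genes were lower in LKO livers without exception among the 6 tested, and the class I genes split. On TMM-scaled counts 8 of the 10 genes fell and 0 rose at an adjusted p under 0.05 (edgeR's quasi-likelihood test, two-sided, Benjamini-Hochberg over all 18636 genes). No gene of the 10 was higher at an unadjusted p under 0.05 either, nor with DESeq2 or edgeR's exactTest, where 8 were lower. Of all genes tested, 40.1% passed this threshold in either direction, 20.5% as lower and 19.6% as higher. The 6 class II genes had a median log2 fold change of −2.62 and the 4 class I genes one of −0.37, against −0.04 over all genes tested. *H2-D1* and *B2m* were the genes that did not pass. Values of WT and LKO mice did not overlap for the 8 genes that fell, where 54.0% of all genes tested showed no overlap in either direction (27.9% as lower and 26.1% as higher). The p-values measure the spread among these mice only. In whole liver, fewer cells of a type and less RNA per cell cannot be told apart.

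**Figure D1:**
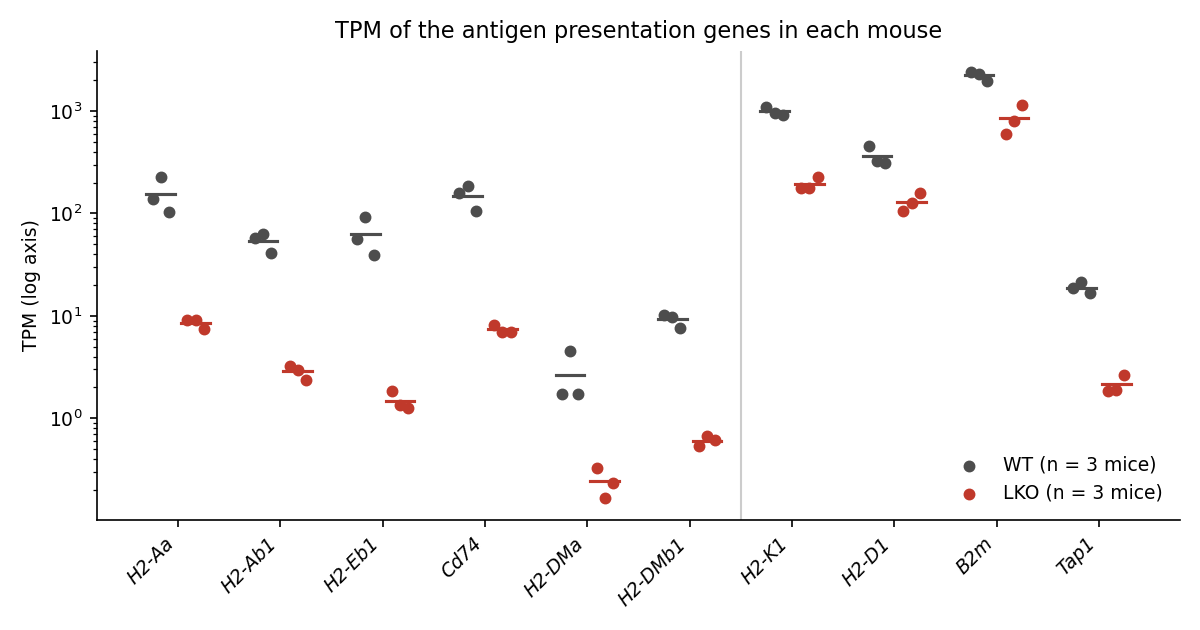
TPM of the 10 genes in each mouse on a log axis, with WT in grey and LKO in red. Points are mice and short lines are means (n = 3), with class II genes left of the vertical line and class I genes right of it. On this scale every LKO value lies below every WT value of the same gene.

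Among the class II chains, *H2-Aa* (chromosome 17, 34282744 to 34287823 in GRCm38.p6) encodes the alpha chain of I-A. It was at 139, 226 and 104 TPM in the WT mice 1, 2 and 3 and at 9.14, 9.08 and 7.50 TPM in the LKO mice 1, 2 and 3. WT mouse 2 was the highest, and the LKO mice lay close together and far below. On TMM-scaled counts the log2 fold change was −2.59 (SE 0.29, edgeR adjusted p = 4.5e-04).

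*H2-Ab1* (chromosome 17, 34263227 to 34269418), the beta chain of I-A, stood at 57.1, 62.9 and 40.7 TPM in the WT mice and at 3.27, 2.96 and 2.38 TPM in the LKO mice. It was low in all 3 LKO mice, as *H2-Aa* was, and the groups did not overlap. Its log2 fold change was −2.64 on TMM-scaled counts (SE 0.23, edgeR adjusted p = 2.6e-04).

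*H2-Eb1* (chromosome 17, 34305867 to 34316674), the beta chain of I-E, had the lowest fold change of the 10 genes and ranked 96 from the lowest among the 18636 genes tested. Its TPM were 55.9, 92.6 and 39.4 in the WT mice and 1.84, 1.36 and 1.26 in the LKO mice, from read counts of 2355 to 4813 and of 128 to 185. All 3 LKO mice were low. Its log2 fold change on TMM-scaled counts was −3.82 (SE 0.31, edgeR adjusted p = 2.2e-04). C57BL/6 mice carry a defective gene for the I-E alpha chain, so the product of *H2-Eb1* does not reach the surface as I-E in this strain. That alpha chain gene, listed as *H2-Ea-ps*, had 0 counts in all 6 mice.

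*Cd74*, on chromosome 18, encodes the invariant chain. It was measured at 157, 183 and 106 TPM in the WT mice and 8.20, 7.01 and 6.94 TPM in the LKO mice. As with *H2-Aa*, WT mouse 2 was the highest, and no LKO mouse came near the WT values. The log2 fold change was −2.79 on TMM-scaled counts (SE 0.21, edgeR adjusted p = 2.1e-04).

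*H2-DMa* and *H2-DMb1* encode the chains of H2-DM, the peptide editor. *H2-DMa* (chromosome 17, 34119693 to 34139101) was at 1.71, 4.55 and 1.72 TPM in the WT mice and 0.330, 0.165 and 0.236 TPM in the LKO mice, and *H2-DMb1* (chromosome 17, 34153191 to 34160229) was at 10.3, 9.84 and 7.69 TPM in the WT mice and 0.540, 0.668 and 0.610 TPM in the LKO mice. Both were low throughout the LKO mice. On TMM-scaled counts the log2 fold change was −1.64 for *H2-DMa* (SE 0.31, edgeR adjusted p = 0.0039) and −2.35 for *H2-DMb1* (SE 0.26, edgeR adjusted p = 4.5e-04). Their read counts in the LKO mice were 41 to 100 and 42 to 55. The annotated span of *H2-DMa* overlaps *Brd2*, which had 1161 to 2641 counts, so that reads assigned between these genes are less certain.

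For the class I heavy chains, *H2-K1* (chromosome 17, 33996012 to 34000619) was at 1100, 961 and 921 TPM in the WT mice and 177, 177 and 228 TPM in the LKO mice. The groups were far apart on this scale. On TMM-scaled counts it was at 934, 761 and 829 CPM in the WT mice and 402, 538 and 499 CPM in the LKO mice, again without overlap, with a log2 fold change of −0.81 (SE 0.19, edgeR adjusted p = 0.011).

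*H2-D1* (chromosome 17, 35263094 to 35267497) encodes the other classical heavy chain of this strain. Its TPM were 453, 326 and 308 in the WT mice and 106, 127 and 158 in the LKO mice, and its CPM were 402, 270 and 289 in the WT mice and 252, 403 and 360 in the LKO mice. On the TPM scale the groups were apart, and on the TMM-scaled counts they overlapped over nearly their whole range. The log2 fold change on TMM-scaled counts was 0.08 (SE 0.23, edgeR adjusted p = 0.81). *H2-K1*, *H2-D1* and the *H2-Q* and *H2-T* genes are near-identical over long stretches, and how reads shared among them were divided is uncertain.

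*B2m* (chromosome 2, 122147687 to 122153082), the light chain of all class I molecules, had the highest TPM of the 10 genes. It was at 2397, 2299 and 1974 TPM in the WT mice and 596, 801 and 1142 TPM in the LKO mice. On TMM-scaled counts the values were 1051, 939 and 916 CPM in the WT mice and 699, 1256 and 1286 CPM in the LKO mice. LKO mouse 1 was the lowest of all mice and LKO mice 2 and 3 the highest, so the groups overlapped, with a log2 fold change of 0.16 (SE 0.26, edgeR adjusted p = 0.66).

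*Tap1* (chromosome 17, 34187556 to 34197225), a subunit of the transporter that brings peptides to class I molecules, was at 18.5, 21.3 and 16.7 TPM in the WT mice and 1.86, 1.90 and 2.66 TPM in the LKO mice. It thus fell where *B2m* did not pass the test. The log2 fold change on TMM-scaled counts was −1.59 (SE 0.17, edgeR adjusted p = 4.0e-04).

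In WT livers the order of the TPM levels was *B2m*, *H2-K1*, *H2-D1*, *H2-Aa*, *Cd74*, *H2-Eb1*, *H2-Ab1*, *Tap1*, *H2-DMb1* and *H2-DMa*. The neighbours *H2-Aa* and *Cd74* overlapped among mice, as did *H2-Eb1* and *H2-Ab1*, and the other neighbours did not. In LKO livers *H2-Eb1* stood below *H2-Ab1* and *Tap1* in TPM, and the values of *H2-Ab1* and *Tap1* overlapped.

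The direction of *H2-D1* and *B2m* depended on the scaling, and that of the other 8 genes did not. Scaled by total counts alone, the log2 fold change of *H2-D1* was −0.81 and that of *B2m* −0.73, beside a median of −0.90 over all genes, and both were called lower. Relative to that median they stood at 0.09 and 0.17. With limma on log2(TPM + 1), *H2-D1* was at −1.46 and *B2m* at −1.44, which is −0.68 and −0.65 relative to the median. The pseudocount of 1 shrinks the fold changes of genes with low TPM, and with them that median. Distances from it on this scale are therefore not those from genes of like level. *Cd1d1* and *H2-T23*, at 0.11 and 0.23 on TMM-scaled counts, were at −1.38 and −1.32 with limma on log2(TPM + 1). With offsets for gene length, *B2m* was at −0.33 (edgeR adjusted p = 0.35, range over all alternatives 0.0032 to 0.98). The class II genes lay below the median of all genes under each of these scalings, with list medians of −2.62 with total counts and −3.10 with limma on log2(TPM + 1) relative to it.

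**Figure D2:**
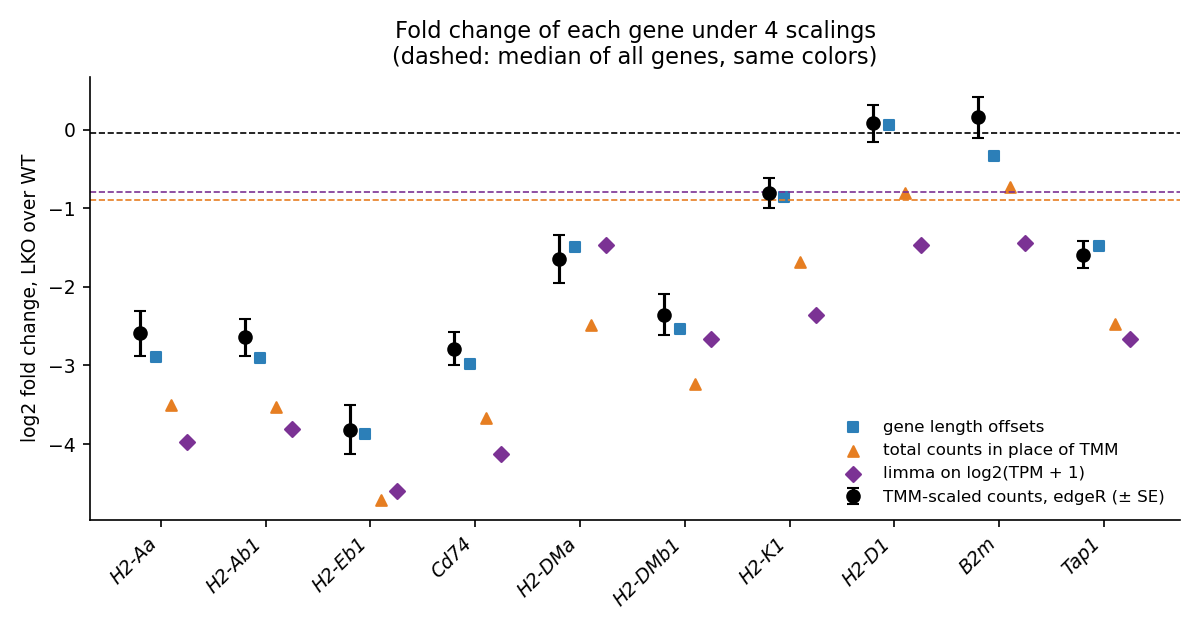
Log2 fold change of LKO over WT for each gene under 4 scalings, with the median of all genes as a dashed line for 3 of them. Bars on the TMM values are standard errors. *H2-D1* and *B2m* sit near the dashed line with TMM and with total counts and below it with TPM, and the 6 class II genes and *Tap1* sit below it under all 4.

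A ratio of the TPM of different genes in the same mouse is not changed by any scaling of the library, although a bias by gene length could change it. In all, 15 such ratios were computed, chosen after the values had been seen, and 10 of them did not overlap between genotypes. Each of these 10 had the smallest p that an exact permutation test of 3 against 3 mice allows (two-sided, p = 0.1, 0.15 after Benjamini-Hochberg adjustment over the 15 ratios).

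The summed class II chains, relative to the summed heavy chains *H2-K1* and *H2-D1*, were at 0.162, 0.296 and 0.150 in the WT mice and 0.0504, 0.0441 and 0.0288 in the LKO mice. The ratio thus fell from 0.203 ± 0.0809 to 0.0411 ± 0.0111 (mean ± SD, n = 3), without overlap. Within the class II chains, *H2-Eb1* over *H2-Aa* was 0.401, 0.410 and 0.379 in the WT mice and 0.201, 0.150 and 0.168 in the LKO mice. *H2-Eb1* was thus lower relative to *H2-Aa* in each LKO mouse, whereas *H2-Aa* over *H2-Ab1* overlapped (2.86 ± 0.630 in WT and 3.01 ± 0.186 in the LKO mice; two-sided exact permutation test, p = 0.7).

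*Cd74* relative to the sum of *H2-Aa* and *H2-Ab1* was 0.723 ± 0.0825 in WT and 0.649 ± 0.0609 in the LKO mice, with overlap (two-sided exact permutation test, p = 0.3). Among the class I genes the ratios differed. *H2-K1* over *H2-D1* was 2.43, 2.94 and 2.99 in the WT mice and 1.66, 1.39 and 1.45 in the LKO mice. Every LKO mouse was below every WT mouse in this ratio. *H2-K1* over *B2m* was likewise lower, at 0.448 ± 0.0260 in WT and 0.239 ± 0.0507 in the LKO mice. *H2-D1* over *B2m* overlapped, at 0.162 ± 0.0240 and 0.158 ± 0.0201 (two-sided exact permutation test, p = 0.8).

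**Figure D3:**
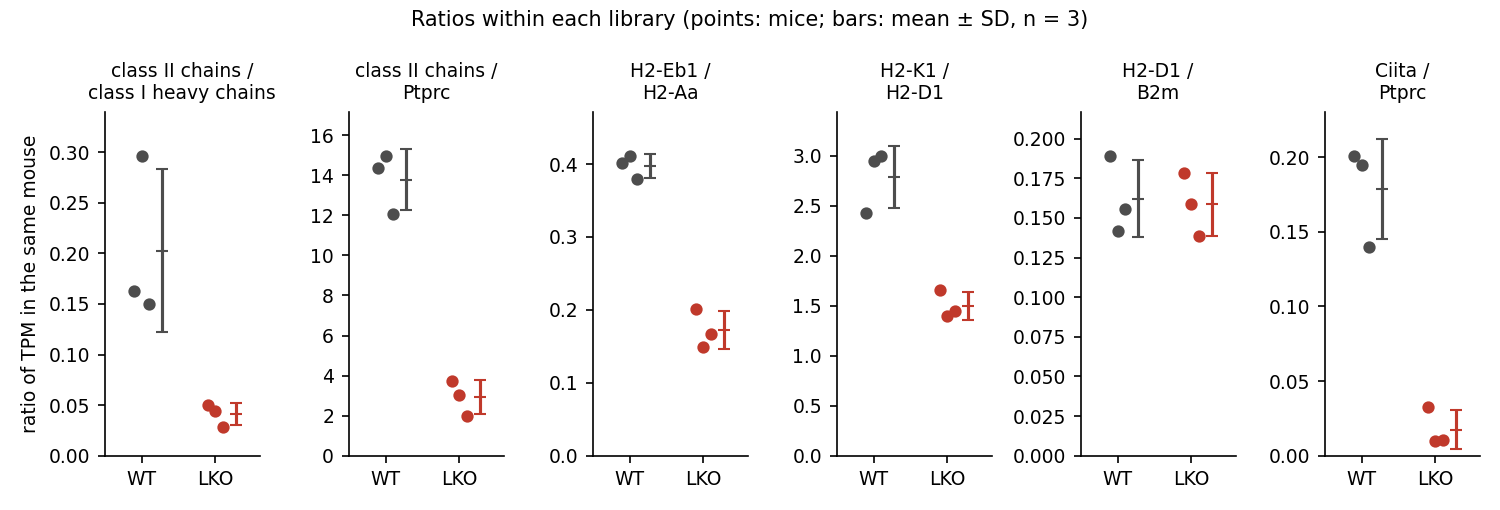
Ratios of TPM within each library for 6 of the 15 ratios, each axis starting at 0. Points are mice, and bars are mean ± SD (n = 3). In 5 of the 6 panels every LKO mouse lies below every WT mouse, and *H2-D1* over *B2m* overlaps.

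Among other genes of the pathway, more were called lower than higher. Of 62 genes listed by role beside the 10, 61 were in the table and 56 were tested, and 22 of these were lower, 3 higher and 31 neither, with a median log2 fold change of −0.53. The shares of all genes tested are 20.5% lower and 19.6% higher, as given above, and each count by role below stands beside them. These counts rest on TMM. With total counts 47 of the 56 genes were called, and with limma on log2(TPM + 1) 53 were. Of all 18636 genes tested, these scalings called 10742 and 12918, of which 9575 and 12519 were lower.

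Peptide transport and loading had 5 lower genes of 7 and 0 higher. *Calr*, the chaperone calreticulin, was at 630, 434 and 435 CPM in the WT mice and 166, 203 and 169 CPM in the LKO mice. No LKO mouse reached the WT values, and the log2 fold change was −1.48 (SE 0.21, edgeR adjusted p = 0.0010). *Canx*, the chaperone calnexin, had a log2 fold change of −0.75 (SE 0.18, edgeR adjusted p = 0.011). *Pdia3*, a disulfide isomerase of the loading complex, stood at −0.40 (SE 0.19), and *Erap1*, which trims peptides in the endoplasmic reticulum, at 0.20 (SE 0.16), and neither passed the test. *Tap1* over *Tap2*, the ratio of the transporter's subunits in TPM, was 2.75, 3.56 and 2.78 in the WT mice and 1.63, 2.70 and 2.56 in the LKO mice, and the gap between the nearest mice was smaller than the spread within either group.

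Subunits of the immunoproteasome, which cuts proteins into peptides suited to class I, were lower in 4 of 5 genes. The catalytic subunits *Psmb8* and *Psmb10* had log2 fold changes of −0.93 (SE 0.27, edgeR adjusted p = 0.025) and −1.47 (SE 0.27, edgeR adjusted p = 0.0032). Of the activator subunits, *Psme1* was at −0.89 (SE 0.24, edgeR adjusted p = 0.019) and *Psme2* at −0.04 (SE 0.24, edgeR adjusted p = 0.91). The calls of *Psmb8* and *Psme1* did not hold when single mice were left out. That of *Psmb8* was lost without WT mouse 1, WT mouse 2 or LKO mouse 1, and that of *Psme1* without WT mouse 1, WT mouse 3 or LKO mouse 1. Over all alternatives the adjusted p reached 0.066 for *Psmb8* and 0.054 for *Psme1*.

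Among the other class I heavy chains, 5 of 16 tested genes were lower and 1 was higher, beside 20.5% and 19.6% of all genes tested. *H2-Q10*, a secreted class I molecule of hepatocytes, was at 999, 583 and 776 CPM in the WT mice and 405, 403 and 318 CPM in the LKO mice. The groups did not overlap, with a log2 fold change of −1.07 (SE 0.24, edgeR adjusted p = 0.0079). *Fcgrt*, the heavy chain of the neonatal Fc receptor, which also pairs with beta-2-microglobulin, was at −0.73 (SE 0.13, edgeR adjusted p = 0.0036). *Cd1d1*, which presents lipids, was at 0.11 (SE 0.30) and *H2-T23*, which encodes Qa-1, at 0.23 (SE 0.22), and neither passed the test. The gene that rose was *H2-Q2*, at 0.604, 0.275 and 0.454 CPM in the WT mice and 1.59, 2.18 and 1.08 CPM in the LKO mice.

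Of the other class II chains and editors, *H2-DMb2*, the second copy of the beta chain of H2-DM, fell, with a log2 fold change of −1.93 (SE 0.44, edgeR adjusted p = 0.0086). *H2-Oa* and *H2-Ob*, the chains of the H2-DM inhibitor H2-DO, were at −0.58 (SE 0.44) and −0.31 (SE 0.38), did not pass, and were under 1 CPM in every mouse. Of the 9 enzymes and regulators of class II processing, 3 were lower and 2 higher, beside 20.5% and 19.6% of all genes tested. *Ctsb* (cathepsin B) had a log2 fold change of −1.07 (SE 0.18, edgeR adjusted p = 0.0023) and *March8*, a ubiquitin ligase that acts on class II molecules, one of −1.04 (SE 0.19, edgeR adjusted p = 0.0038). *Ctsl* (cathepsin L) rose. It was at 246, 211 and 268 CPM in the WT mice and 694, 1228 and 1489 CPM in the LKO mice, with a log2 fold change of 2.23 (SE 0.29, edgeR adjusted p = 8.3e-04). The other gene that rose was *March1*, a ligase of the same family, at 1.19 (SE 0.33, edgeR adjusted p = 0.022). *Ctsd* (cathepsin D) was at −0.07 (SE 0.17) and did not pass.

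**Figure D4:**
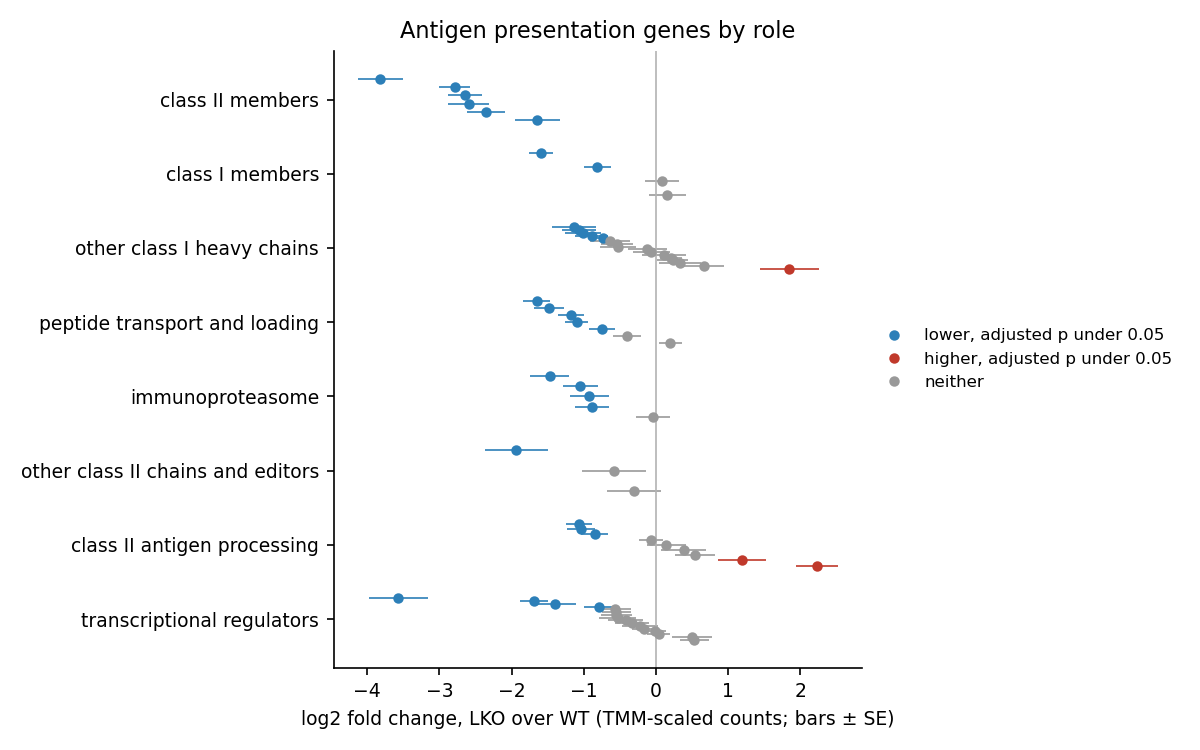
Log2 fold change of LKO over WT on TMM-scaled counts for the 10 genes and for the pathway genes by role, with standard errors as bars. Blue and red mark genes called lower and higher in edgeR, and grey marks the others. The class II genes and *Ciita*, the lowest point among the regulators at −3.57, lie farthest to the left.

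The regulators of these genes included 4 lower of 16 tested and 0 higher (1 at an unadjusted p under 0.05 and 1 with DESeq2). Of all genes tested, 20.5% were lower and 19.6% higher, and no difference between this list and other genes was tested. *Ciita*, the coactivator on which class II transcription depends, was at 11.2, 16.5 and 7.39 CPM in the WT mice and 1.52, 0.745 and 0.670 CPM in the LKO mice. WT mouse 2 was the highest here too, and the LKO mice were all low. The log2 fold change was −3.57 (SE 0.41, edgeR adjusted p = 5.1e-04). *Nlrc5*, the coactivator of class I genes, also fell, with a log2 fold change of −0.79 (SE 0.21, edgeR adjusted p = 0.016). *Irf1*, an interferon regulatory factor that acts on *Ciita* and on class I genes, had a log2 fold change of −1.40 (SE 0.30, edgeR adjusted p = 0.0064). *Rfx5*, the X box factor, was at −0.42 (SE 0.24, edgeR adjusted p = 0.20) and *Creb1*, a factor of the X2 element, at 0.04 (SE 0.16, edgeR adjusted p = 0.86).

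Markers of the cells that make class II, and of other liver cells, were set beside the class II genes. Over all genes tested, 20.5% were lower and 19.6% higher on TMM-scaled counts, the scale of the counts below unless another is named. With total counts 9575 of the 18636 genes were lower and 1167 higher, and with limma on log2(TPM + 1) 12519 and 399. No difference between a list and other genes was tested. Kupffer cell markers were higher in 4 of 7 genes (*Clec4f*, *Vsig4*, *Timd4* and *Marco*) and lower in 0, and their summed level was 269.7 to 408.5 CPM in WT and 442.5 to 863.0 CPM in the LKO mice. The broader macrophage genes *Adgre1* (F4/80) and *Csf1r* had log2 fold changes of −0.12 (SE 0.27) and −0.18 (SE 0.21) and did not pass the test. The direction of the Kupffer cell list is relative to the scaling, since total counts gave 2 genes higher and 2 lower and limma on log2(TPM + 1) gave 0 higher and 2 lower, with list medians that stayed above the median of all genes by 1.19 and 0.42.

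Dendritic cell markers were lower in 1 of 7 genes, and their sums overlapped, at 17.3 to 24.1 CPM in WT and 15.2 to 20.6 CPM in the LKO mice, with at least 1 count of 0 in *Cd209a*. The gene that fell was *Itgax* (CD11c), which dendritic cells and some macrophages make. It was at 4.69, 6.54 and 2.89 CPM in the WT mice and 0.364, 0.602 and 0.605 CPM in the LKO mice. Every LKO mouse was low, with a log2 fold change of −3.17 (SE 0.39, edgeR adjusted p = 6.1e-04). *Clec9a*, a marker of cross-presenting dendritic cells, was at 4.69, 5.06 and 4.63 CPM in the WT mice and 7.34 and 8.56 CPM in LKO mice 2 and 3, with LKO mouse 1 just above the highest WT mouse. The groups did not overlap, and the gene did not pass the test (log2 fold change 0.55, SE 0.22, edgeR adjusted p = 0.074), although DESeq2 called 1 gene of the list higher. The remaining markers had fold changes in the other direction and did not pass either. *Flt3* was at −0.83 (SE 0.39), without overlap between the groups. *Cd209a* was at −1.47 (SE 0.81), *Xcr1* at −0.73 (SE 0.66), *Zbtb46* at −0.09 (SE 0.19) and *Siglech* at −0.09 (SE 0.45). With total counts 4 of the 7 genes were lower and with limma on log2(TPM + 1) 6 were, beside 9575 and 12519 of the 18636 genes tested. B cell markers were neither higher nor lower in any of the 6 genes tested (0 at an unadjusted p under 0.05 in edgeR and 0 with DESeq2), although 1 was lower with total counts and 3 with limma on log2(TPM + 1), and their sums overlapped, with the lowest at 2.92 CPM in WT and 2.75 CPM in the LKO mice.

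T cell markers were lower in 2 of the 4 genes tested. The other genes, *Cd3g* and *Cd3e*, did not pass. Their log2 fold changes were −0.80 (SE 0.29, edgeR adjusted p = 0.059) and −1.26 (SE 0.91, edgeR adjusted p = 0.30). *Cd4* and *Cd8a* had log2 fold changes of −2.70 (SE 0.38, edgeR adjusted p = 0.0010) and −2.69 (SE 0.51, edgeR adjusted p = 0.0040), and the summed T cell level was 4.90 to 6.34 CPM in WT and 1.36 to 1.63 CPM in the LKO mice, with counts of 0 in *Cd3d* and *Cd3e*. *Cd3d*, a chain of the T cell receptor complex, had 49, 34 and 12 counts in the WT mice and 0 in each LKO mouse, where a count of 0 allows up to 3, and was left out of the test by the filter. The general leukocyte markers were called in 0 of 3 genes (1 was lower at an unadjusted p under 0.05 in edgeR, 0 with DESeq2), with sums that did not overlap, at 57.7 to 78.3 CPM in WT and 37.8 to 57.0 CPM in the LKO mice. All 3 were called lower with total counts and with limma on log2(TPM + 1), as were 9575 and 12519 of the 18636 genes tested. *Ptprc* (CD45), the marker of all leukocytes, was at −0.47 (SE 0.21, edgeR adjusted p = 0.11).

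Monocyte and neutrophil markers were higher in 2 of 5 genes (*S100a8* and *S100a9*), with sums of 8.95 to 18.8 CPM in WT and 17.4 to 37.4 CPM in the LKO mice. *Ly6c2*, *Ccr2* and *Itgam* had log2 fold changes of −0.35 (SE 0.62), −0.56 (SE 0.38) and −0.51 (SE 0.34) and did not pass. With total counts 1 gene of this list was higher and 2 lower, and with limma on log2(TPM + 1) 0 higher and 3 lower. Markers of sinusoidal endothelium were higher in 3 of 5 genes and those of stellate cells in 2 of 4, with 0 lower in either list on TMM-scaled counts. With total counts the endothelial list had 2 higher and 2 lower, with limma on log2(TPM + 1) 0 higher and 3 lower, and the stellate cell list had 1 higher and 2 lower under both. Hepatocyte markers were higher in 2 genes (*Alb* and *Apoa1*) and lower in 1 (*Ttr*) of the 4 tested. With total counts 2 of these markers were higher and 2 lower, and with limma on log2(TPM + 1) 0 were higher and 2 lower. *Alb*, at 19641 to 23812 CPM in WT and 60635 to 83840 CPM in the LKO mice, made up most of their sums of 26429 to 30152 CPM in WT and 71994 to 92393 CPM in the LKO mice. Cholangiocyte markers were called in 0 of 2 genes (1 was higher at an unadjusted p under 0.05 in edgeR, 0 with DESeq2). The part of any of these cells in the fall of the class II genes was not tested.

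**Figure D5:**
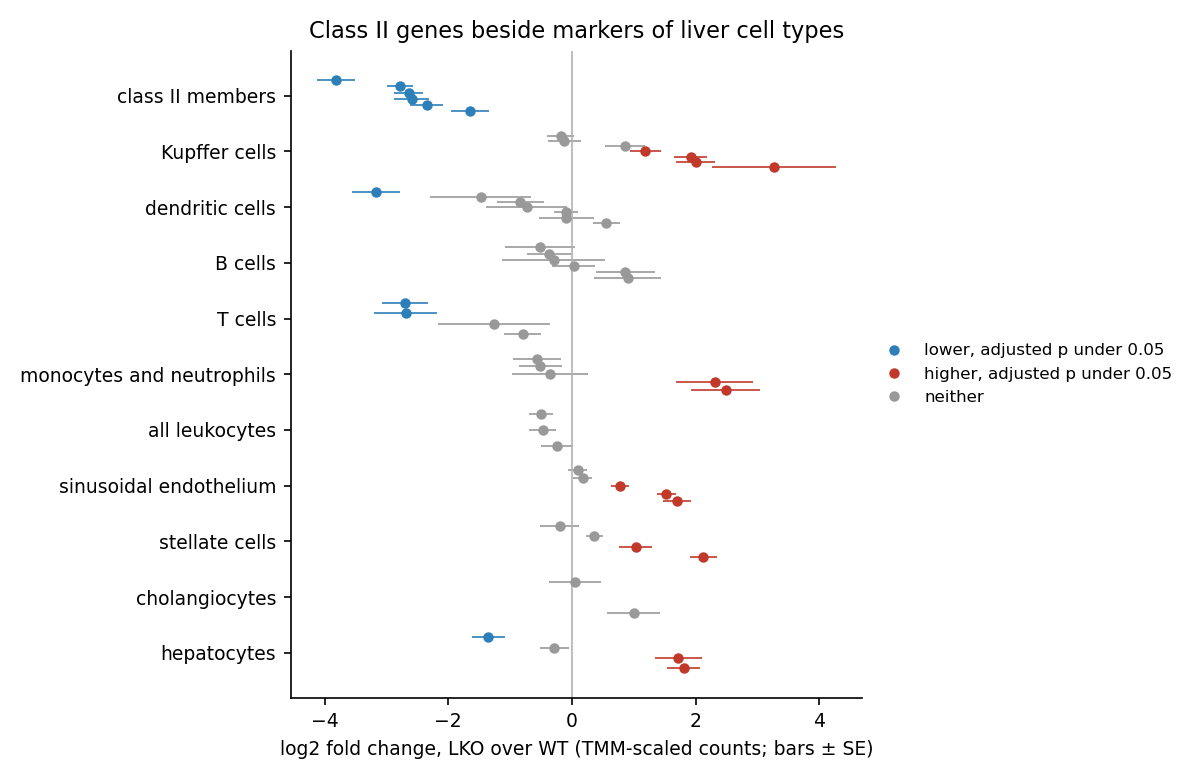
Log2 fold change of LKO over WT on TMM-scaled counts for the 6 class II genes and for markers of liver cell types, with standard errors as bars and colors as calls in edgeR. All 6 class II genes are at or below −1.64. Of the marker lists, those of dendritic cells (*Itgax*) and T cells (*Cd4* and *Cd8a*) hold genes as low, and 4 Kupffer cell markers are higher.

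Within each library the class II chains were set against *Ptprc*, *Adgre1* and *Itgax*. Their summed TPM over that of *Ptprc* was 14.3, 14.9 and 12.1 in the WT mice and 3.72, 3.05 and 2.01 in the LKO mice. Over *Adgre1* it was 9.17 ± 1.56 in WT and 1.42 ± 0.464 in the LKO mice. All LKO mice were below all WT mice in both ratios. Over *Itgax* the sum overlapped between genotypes, at 107, 104 and 123 in the WT mice and 231, 162 and 99.0 in the LKO mice (two-sided exact permutation test, p = 0.4). *Itgax* had only 16, 21 and 28 counts in the LKO mice, so these LKO ratios are uncertain. *Ciita* over *Ptprc* was 0.200, 0.195 and 0.140 in the WT mice and 0.0323, 0.0101 and 0.0102 in the LKO mice, and *Itgax* over *Ptprc* was 0.125 ± 0.0242 and 0.0184 ± 0.0021. *Ciita* and *Itgax* were thus lower relative to *Ptprc* in every LKO mouse.

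The genes most like the class II genes over the 6 mice, by Pearson's r of log2 TMM-scaled CPM with the mean of *H2-Aa*, *H2-Ab1*, *H2-Eb1* and *Cd74*, were *Nup155*, *Actb*, *Cdk1*, *Casc4* and *Pole*, with r of 0.996 to 0.998. Since the mice fall into the genotypes, r largely restates the difference between them, and 859 of 12989 genes had an r of at least 0.95. The pattern of *H2-K1*, *H2-D1* and *B2m* was matched best by *Dnajc3*, *Esyt2*, *Zfp462*, *Tnk2* and *Mak16*, with r of 0.966 to 0.979, and 10 genes had an r of at least 0.95.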

How the data were processed

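Liver RNA of 3 WT and 3 LKO mice was sequenced with 1 library per mouse, and each sample took its group from its genotype label. Per the labels, the libraries came from a stranded mRNA kit, whereas the methods name rRNA removal and a kit for total RNA. The submitters' processing notes list bcl2fastq 2.20.0, FastQC 0.11.7, HISAT2 2.1.0, Bowtie2 2.3.4.1 and StringTie 2.1.3b with the mm10 genome. The file deposited by the authors lists 45777 genes with raw read counts, FPKM and TPM per mouse. The deposited FPKM were scaled by the authors by gene length and depth and entered here only as the ratio of count to FPKM, which gives relative gene length. The deposited TPM share 1 sum over all mice by the scaling of the authors. Whether strand was used in counting, and how reads that match several genes were divided, is not given in the sources used here. Of the gene numbers, 45679 matched the RefSeq table of GRCm38.p6.

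Following the study's methods, a gene was dropped if over 1 of the 6 mice had a count of 0. TMM-scaled counts entered the quasi-likelihood test of edgeR 4.0.16 (R 4.3.3) by genotype, two-sided, with Benjamini-Hochberg adjustment over 18636 genes and a threshold of 0.05. The common biological coefficient of variation was 0.254. Single values were compared with exact permutation tests. The procedure was tested on simulated data. Alternatives were exactTest, DESeq2 1.42.0, limma 3.58.1 on log2(TPM + 1), where the pseudocount is 1, other scalings and filters, offsets for gene length, the replicate block, a threshold of 0.01 and leaving out each mouse. The within-library ratios were added after the values had been seen.

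The 10 genes, the pathway list and the markers were chosen with earlier results of these data known. Named in the text were the 10 genes, the 4 pathway genes of each role with the highest mean CPM (results for some single genes are not reported here, and these stay in the counts), and *Ciita*, *Nlrc5* and *Rfx5*. *H2-Q2*, *March1* and the named markers were chosen after their values were seen. *H2-T9* of the pathway list and *Tf* of the hepatocyte list were not analysed here.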

Additional observations from a re-analysis of the deposited data

How the results depend on the processing

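Of the 10 genes, the 8 called lower were called lower under all 19 alternative fits, *H2-K1* with adjusted p-values of up to 0.042. The number of genes called among the 10 was 7 at a threshold of 0.01, 10 with total counts and with limma on log2(TPM + 1), and 8 with each mouse left out in turn. Over all genes 7476 were called (3661 higher and 3815 lower), against 4374 at 0.01, 10742 with total counts (1167 higher and 9575 lower), 12918 with limma (399 higher and 12519 lower) and 5617 to 7230 with 1 mouse left out. Of the pathway genes 25 were called, against 16 at 0.01, 47 with total counts, 53 with limma and 22 to 29 with 1 mouse left out.

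Same-numbered WT and LKO mice are different animals. Their deviations from the group means correlated at 0.000233, −0.0390 and −0.0557, and the numbers were not read as pairs. With the replicate number as a block, 8 of the 10 genes and 6431 of all genes were called.

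Directions that turned were those of genes not called on TMM-scaled counts, and the cause was not tested. With total counts the log2 fold change was −0.81 for *H2-D1*, −0.73 for *B2m*, −0.75 for *Cd1d1*, −0.66 for *H2-T23*, −0.68 for *Erap1* and −0.82 for *Creb1*. With limma on log2(TPM + 1) it was −1.46, −1.44, −1.38, −1.32, −1.29 and −1.32 for the same genes. *B2m* was at −0.33 with length offsets and −0.38 with these and the replicate block. *Psme2* was at 0.045 with upper-quartile scaling and 0.0039 with TMM on protein-coding genes, and *Ctsd* at 0.0089 with upper-quartile scaling. With 1 mouse left out, *H2-D1* ranged from −0.066 to 0.27, *Cd1d1* from −0.11 to 0.41, *Psme2* from −0.28 to 0.19, *Ctsd* from −0.16 to 0.023 and *Creb1* from −0.074 to 0.11. The call of *Canx* was lost with the replicate block and length offsets together, and that of *Ctsl* with limma on log2(TPM + 1). Levels of *H2-DMa*, *H2-DMb1*, *Itgax* and the T cell markers in LKO mice rest on few reads, and 3 mice a group limit what can be seen of *H2-D1* and *B2m*.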

Other observations

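Most class II and class I genes lie in the MHC region of chromosome 17. Between the start of *H2-K1* and the end of *H2-D1* (33996012 to 35267497 in GRCm38.p6), 78 genes were tested, of which 34 (43.6%) were called lower and 2 (2.56%) higher, with a median log2 fold change of −0.54 on TMM-scaled counts. The 14 of them on the member and pathway lists held 11 of the lower calls. Of the 64 genes on neither list, 23 (35.9%) were lower and 2 (3.12%) higher, with a median of −0.36, beside 20.5% and 19.6% of all genes tested. No test of this difference was made, and neighbouring genes are not independent.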
